A study of Mus musculus with 7 samples.

Results

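The proteasome genes were taken as every mouse gene whose symbol is Psma, Psmb, Psmc, Psmd, Psme, Psmf or Psmg followed by a number. This rule, which used no measured value, found 48 of the 34592 genes in the deposited count table. By function they are 14 constitutive core subunits, 3 immunoproteasome subunits, 2 core subunits specific to single tissues, 17 cap subunits, 7 assembly factors and 5 regulators. RNA was sequenced from 7 mouse Group 3 medulloblastomas (G3 MBs), 3 controls and 4 labelled WDR11OE. Their growth protocol names tumorsphere line # 19568. That line came from cerebellar granule neuron progenitors of 7-day-old Trp53-/-; Cdkn2c-/- mice given a Myc-IRES-GFP retrovirus, so that both groups lack Trp53 and Cdkn2c and carry Myc. Tumorspheres were infected with a lentivirus carrying human WDR11 behind the EF1 promoter and copGFP, or with the empty vector, and were implanted unsorted into the cortex of CD1 nu/nu hosts, which lack a thymus and were kept until moribund. The treatment protocol names the empty vector for controls, whereas the treatment label of these samples is none. The paper overexpressed WDR11 in other lines as well and does not name the line of the sequenced tumors. As read from the growth protocol, all tumors represent a single line. The labels do not say whether each tumor came from a separate mouse, so that p-values measure the spread between these samples, which may be partly technical.

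The proteasome is the main protease of the cytosol and nucleus and degrades proteins that carry a chain of ubiquitin. Its barrel-shaped core is built from alpha rings, made of Psma subunits, around beta rings of Psmb subunits, 3 of which carry the active sites. The 19S cap, whose base holds the Psmc ATPases and whose lid holds most of the Psmd subunits, recognises the ubiquitin, removes it and unfolds the substrate. Interferon induces the immunoproteasome subunits Psmb8, Psmb9 and Psmb10, which take the places of Psmb5, Psmb6 and Psmb7. Assembly chaperones (the Psmg genes, Psmd5, Psmd9 and Psmd10) build the particle and are not part of the finished complex, whereas the Psme activators dock on the core in place of the cap. Rapidly growing tumor cells depend on the proteasome, and its inhibitors are used against plasma cell cancers.

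The controls held 33417175 to 41397427 counts each, and the tumors labelled WDR11OE 32116095 to 87141305. The row of human WDR11 did not separate the groups. It held 73, 92 and 102 counts in the controls and 185, 169, 99 and 57 in the tumors labelled WDR11OE replicates 1 to 4, which is 2.03, 2.19 and 3.13 CPM (counts scaled to the size of the library) against 4.38, 2.11, 3.05 and 0.624 CPM (log2 fold change 0.05, SE 0.58, adjusted p = 0.961 with edgeR's quasi-likelihood test). Only replicate 1 lay above all controls. The row therefore gives no support for the labels in these libraries, and every direction below is that of the tumors as labelled. Mouse Wdr11 was at 58.3 to 59.3 CPM in the controls and 61.0 to 68.9 CPM in the tumors labelled WDR11OE, without overlap. It was not called (log2 fold change 0.16, SE 0.06, adjusted p = 0.0910 with the same edgeR test). The study reports increased WDR11 transcript in tumors given the WDR11 virus, and WDR11 protein in tumorspheres grown from such tumors. Those assays were not analysed here. Control libraries and libraries labelled WDR11OE carry numbers of different series, so that series and condition cannot be told apart. The 6 muscle markers were all higher in the tumors labelled WDR11OE (summed level 56.8 to 122 CPM against 1.10 to 1.86 CPM), while neuron markers varied widely within each group (63.6 to 448 CPM and 11.1 to 470.2 CPM) and granule lineage markers summed to 31.6 to 37.9 CPM and 24.2 to 57.8 CPM, with Atoh1 at 0 in all 7 tumors. The 7 endothelial markers summed to 116 to 149 CPM in the controls and 93.7 to 103 CPM in the others, without overlap. Of these markers, 2 were lower (Cdh5, log2 fold change -1.02, and Flt1, -0.74), where 15.8% of all genes tested were lower. The other endothelial markers were not called and went both ways. Kdr (-0.40) and Cldn5 (-0.23) were negative, and Pecam1 (0.12), Emcn (0.19) and Tek (0.02) were positive. The part of these markers in the results below was not tested. In these bulk samples, fewer cells of a type and less RNA per cell cannot be told apart.

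Most core subunits were higher in the tumors labelled WDR11OE, by less than 2-fold. Of the 48 genes, 47 passed the filter on low counts. With edgeR's quasi-likelihood test, adjusted by Benjamini-Hochberg over all 17389 genes tested, 21 genes were higher at an adjusted p under 0.05 (44.7% of the 47, where 18.1% of all genes tested were higher), 3 were lower (6.38%, where 15.8% of all genes were lower) and 23 passed in neither direction. The higher genes changed by 1.27-fold to 1.90-fold, and the lower genes were Psmd3, Psmd11 and Psme3. The median log2 fold change of the 47 genes was 0.36, against 0.08 over all genes tested. Among abundant genes, with an average log2 CPM of at least 5, the background was closer, since 25.4% of all such genes were higher and 25.9% lower, while of the 34 proteasome genes among them 19 were higher and 3 lower. No proteasome gene passed the rule of at least 2-fold with an average log2 CPM above 0, with edgeR, with an unadjusted p under 0.05, with limma-voom or with DESeq2, whereas 2.36% of all genes were higher and 3.45% lower by that rule. No gene of the alpha ring, beta ring, base or assembly factors was lower with edgeR, limma-voom or DESeq2 or at an unadjusted p under 0.05. The number of higher genes changed when single tumors were left out. It was 12 without control replicate 2, 11 without WDR11OE replicate 1 and 11 without WDR11OE replicate 2. Without WDR11OE replicates 2 and 4, whose human WDR11 level was below the control mean of 2.45 CPM, it was 12, and without replicates 1 and 2, whose titles share a number, it was 7. The lower genes numbered 2 to 4 in the same fits. These fits hold fewer tumors, and the share of all genes called in them is not given here. Fewer calls from fewer tumors therefore cannot be told apart from a dependence particular to these genes.

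**Figure D1:**
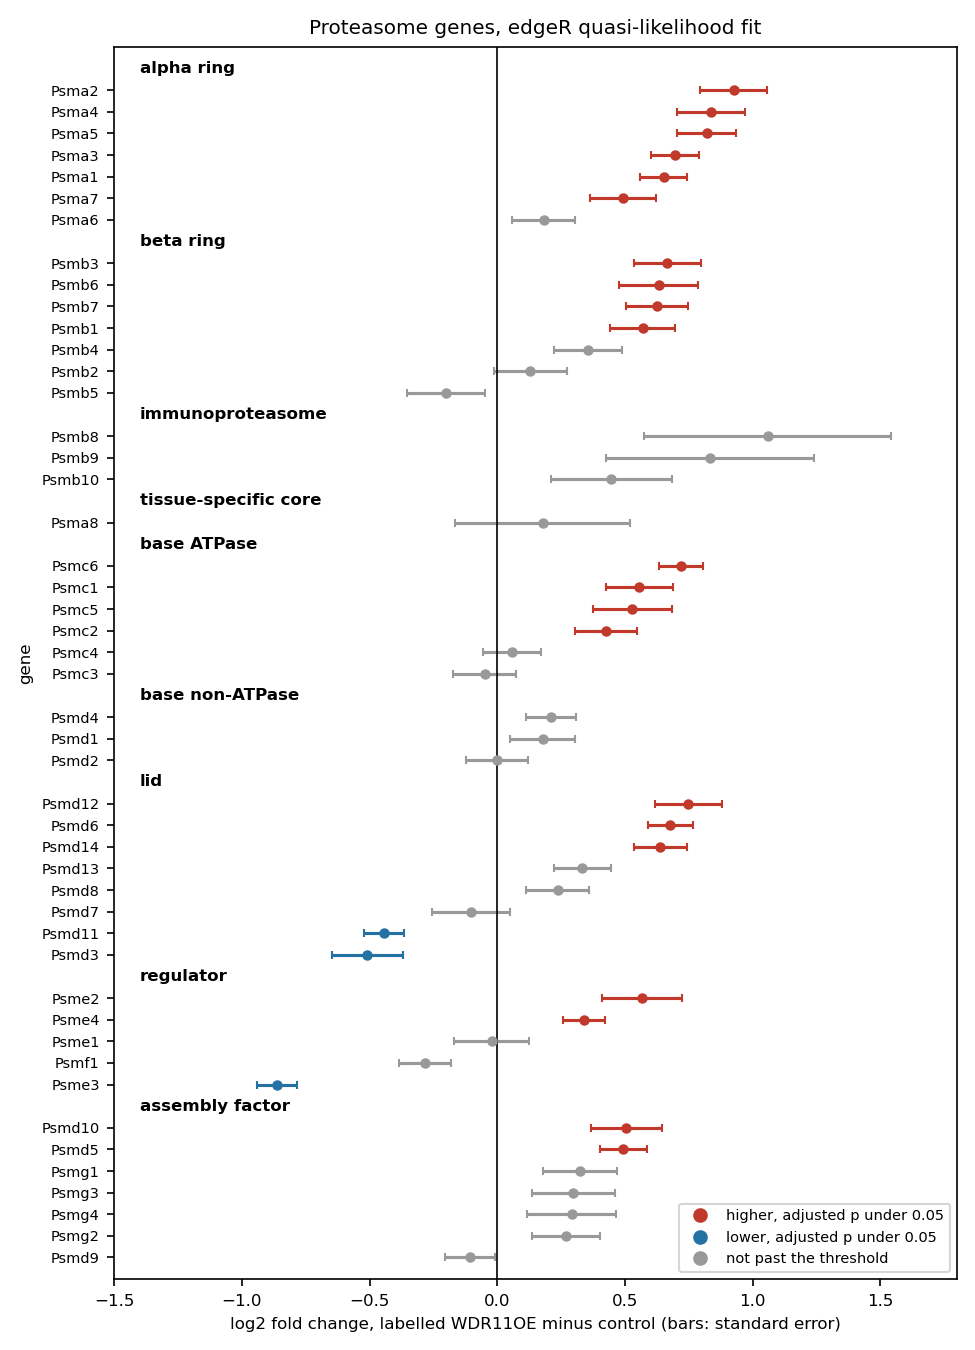
Log2 fold change (labelled WDR11OE minus control, x axis) of the 47 tested proteasome genes, grouped by class, with points for the edgeR estimate and bars for its standard error. Red points are the 21 genes called higher, blue points the 3 genes called lower (Psmd3, Psmd11 and Psme3) and grey points the 23 genes that passed in neither direction, with most red points in the alpha ring, beta ring and base ATPases.

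The proteasome genes together took 0.303%, 0.318% and 0.381% of all counts in control replicates 1 to 3. In the tumors labelled WDR11OE they took 0.447%, 0.419%, 0.403% and 0.413%, so that every one of these tumors lay above every control. In CPM the gap was narrow, with sums of 2985, 3135 and 3905 CPM in the controls and 4474, 4461, 3993 and 3945 CPM in the others. By class, the summed CPM of the lid (603 to 790 CPM against 708 to 829 CPM), the base subunits without ATPase activity and the regulators overlapped between the groups. The order of the tumors was shared by most members. Control replicate 3 had the highest level of the 3 controls for 46 of the 47 genes, and control replicate 1 the lowest for 36. Within the tumors labelled WDR11OE, replicate 1 or 2 was highest for 37 genes and replicate 4 for 6. For these ranks within a group the share over all genes is not given here. Whether the shared order is particular to proteasome genes therefore cannot be told. Among all 7 tumors, control replicate 1 was lowest for 30 of the 47 genes, and for 18.8% of all genes tested. WDR11OE replicate 1 was highest for 13 (14.7% of all genes), replicate 2 for 15 (12.4%) and replicate 4 for 4 (25.0%). The groups did not overlap for 25 genes, 21 of them higher and 4 lower, where 23.5% of all tested genes were higher without overlap and 19.1% lower. Exact permutation over the 35 splits of the 7 tumors, two-sided, gave each of the 24 called genes p = 0.0286, which is the lowest value it can give. All 24 are among the 25 genes without overlap, so that this value adds no separate support. The median SD of log2 CPM over the genes was 0.23 in the controls and 0.13 in the tumors labelled WDR11OE, against 0.21 and 0.20 over all genes.

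**Figure D2:**
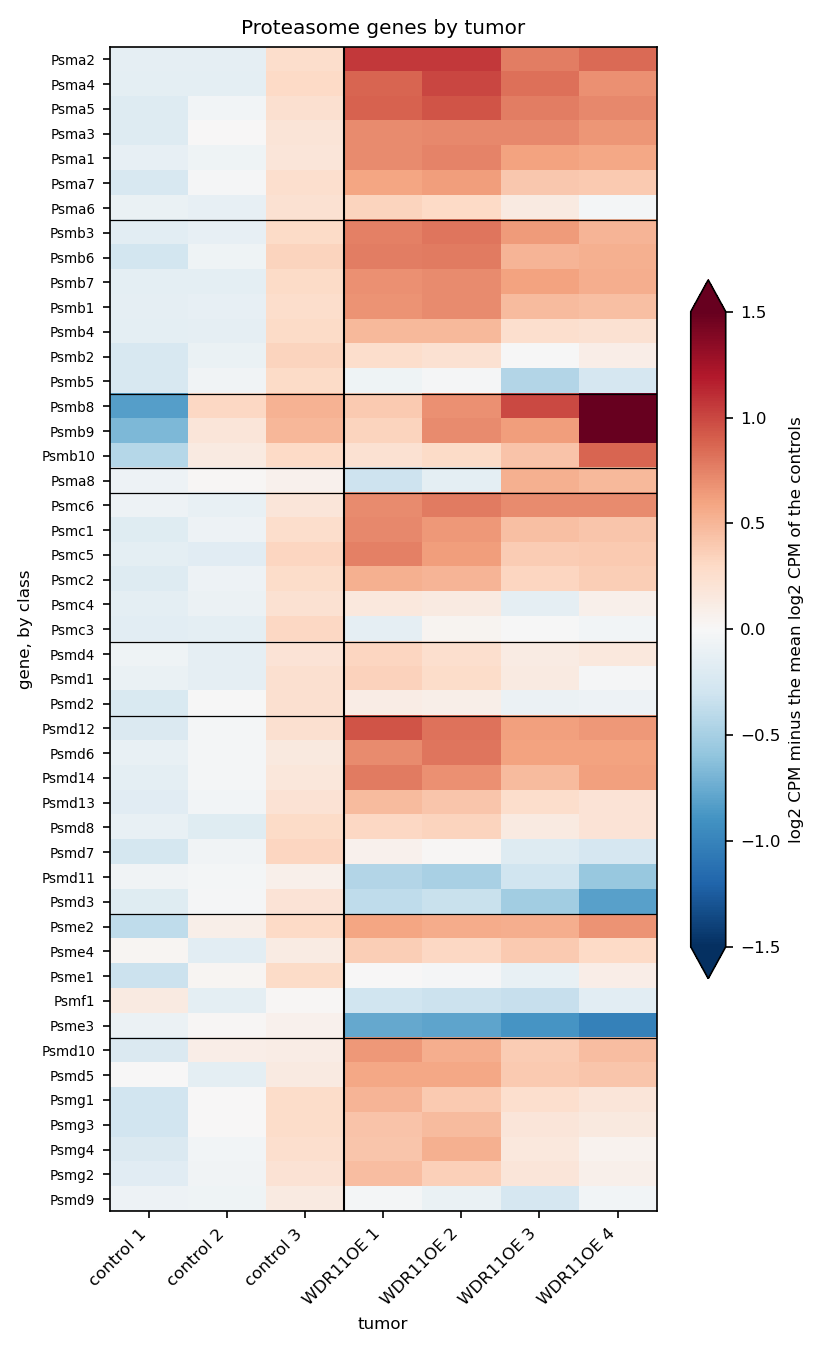
Heat map of log2 CPM minus the mean log2 CPM of the controls, for the 47 tested genes (rows, by class) in the 7 tumors (columns), with red above and blue below the control mean and values beyond 1.5 drawn in the end colours. The rows of the alpha ring are red in all 4 tumors labelled WDR11OE except for Psma6, Psme3 is blue in all 4, and Psmb8 and Psmb9 are darkest in WDR11OE replicate 4.

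The alpha ring, whose subunits form the gate of the core, showed the highest share of calls, with 6 of its 7 genes higher, none lower and a median log2 fold change of 0.70. Of all genes tested, 18.1% were higher and 15.8% lower. Psma2 (NCBIM37 chr13:14705521-14719674) had the highest log2 fold change of the ring. It was at 64.2, 64.0 and 84.6 CPM in the controls and at 146, 146, 119.5 and 127 CPM in the tumors labelled WDR11OE, a 1.90-fold difference (log2 fold change 0.93, SE 0.13, adjusted p = 0.00228). Psma4 (log2 fold change 0.84), Psma5 (0.82), Psma3 (0.70) and Psma1 (0.65) followed, each without overlap between the groups. Psma3 was at 50.1, 57.6 and 65.5 CPM in the controls and stayed within 91.1 to 94.5 CPM in the 4 tumors labelled WDR11OE. Psma7 changed least among the called genes of the ring (log2 fold change 0.49, SE 0.13, adjusted p = 0.0235), and its call was lost without control replicate 1 or 2 or WDR11OE replicate 1 or 2 (adjusted p = 0.0603 to 0.113). Psma6 was the gene of the ring that was not called. Its levels of 66.3, 65.5 and 83.1 CPM overlapped with 89.9, 87.4, 78.1 and 69.6 CPM (log2 fold change 0.18, SE 0.12, adjusted p = 0.306). Psma8, which replaces Psma7 in the testis, was near the detection limit at 8 to 10 counts in each control and 8 to 30 counts in each tumor labelled WDR11OE (log2 fold change 0.18, SE 0.34, adjusted p = 0.730). The coding sequences of Psma2, Psma3, Psma4 and Psma5 have near-identical copies elsewhere in the genome (at least 95% identity, over 96.5% to 100% of their length), so that their counts are uncertain. Psma1 to Psma5 passed the threshold under all 18 alternative fits. With the trend of GC content removed, however, Psma1 was at 0.34 (adjusted p = 0.0464), Psma2 at 0.53 (adjusted p = 0.0373) and Psma3 at 0.35 (adjusted p = 0.0456).

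In the beta ring, 4 of 7 genes were higher and none lower, where 18.1% of all genes tested were higher and 15.8% lower. The median log2 fold change of the ring was 0.57. Psmb3, a subunit without an active site, had the highest log2 fold change (0.67, SE 0.13, adjusted p = 0.00753) and rose from 64.4, 65.7 and 87.3 CPM to 121, 125, 112 and 102 CPM. Psmb1, also without an active site, was higher by 0.57 (SE 0.13, adjusted p = 0.0124), a call lost without control replicate 2 or WDR11OE replicate 1 or 2 (adjusted p = 0.0535 to 0.0699). Psmb2 had the lowest value of the non-catalytic beta genes, 0.13 (SE 0.14, adjusted p = 0.536), and its groups overlapped. Psmb4 was at 0.36 (adjusted p = 0.0797) and passed without control replicate 3. Without control replicate 2, WDR11OE replicate 1 or WDR11OE replicate 2, 2 genes of the ring were called higher.

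The 3 constitutive catalytic subunits did not move together. Psmb6 (NCBIM37 chr11:70338869-70341360), which cuts after acidic residues, was at 70.3, 81.8 and 108 CPM in the controls and at 145, 147, 121 and 123 CPM in the tumors labelled WDR11OE (log2 fold change 0.63, SE 0.15, adjusted p = 0.0183). Psmb7 (chr2:38443556-38499607), which cuts after basic residues, was at 81.0, 81.3 and 109.8 CPM and at 145, 147, 136 and 131 CPM (log2 fold change 0.62, SE 0.12, adjusted p = 0.00754). Neither gene overlapped between the groups. Psmb5 (chr14:55232644-55236851), which cuts after hydrophobic residues and is the main target of proteasome inhibitors, was at 40.2, 45.9 and 58.2 CPM in the controls and at 45.6, 46.8, 34.9 and 39.8 CPM in the tumors labelled WDR11OE. Its groups overlapped, and its log2 fold change was -0.20 (SE 0.15, adjusted p = 0.356). The call of Psmb6 was lost without control replicate 2 or WDR11OE replicate 1 or 2 (adjusted p = 0.0714 to 0.0788). Psmb5 was at 0.02 after removal of the trend with GC content (adjusted p = 0.935) and was called lower after removal of the trend with exon length (log2 fold change -0.42, adjusted p = 0.0165).

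Ratios of CPM within a tumor, which do not depend on the scaling between tumors, showed the same split as a description without a test. Psmb5 was 57.2%, 56.1% and 54.1% of Psmb6 in the controls and 31.4%, 31.9%, 28.9% and 32.2% in the tumors labelled WDR11OE. It was 49.6%, 56.4% and 53.0% of Psmb7 in the controls and 31.5%, 31.7%, 25.6% and 30.4% in the others, so that neither ratio overlapped. Psmb7 was 99.4% to 115% of Psmb6 in the controls and 99.9% to 113% in the tumors labelled WDR11OE, where the ranges overlapped. Per kilobase of transcript, Psmb5, Psmb6 and Psmb7 were at mean levels of 55.2, 108 and 78.2 CPM per kb in the controls and 47.9, 168 and 121 CPM per kb in the tumors labelled WDR11OE, so that Psmb5 was the lowest of the 3 in both groups. The coding sequence of Psmb5 has a near-identical copy elsewhere in the genome (at least 95% identity over 100% of its length), and the exons of Psmb5 overlap Mir686 on the same strand by 109 bases, so that its counts are uncertain.

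**Figure D3:**
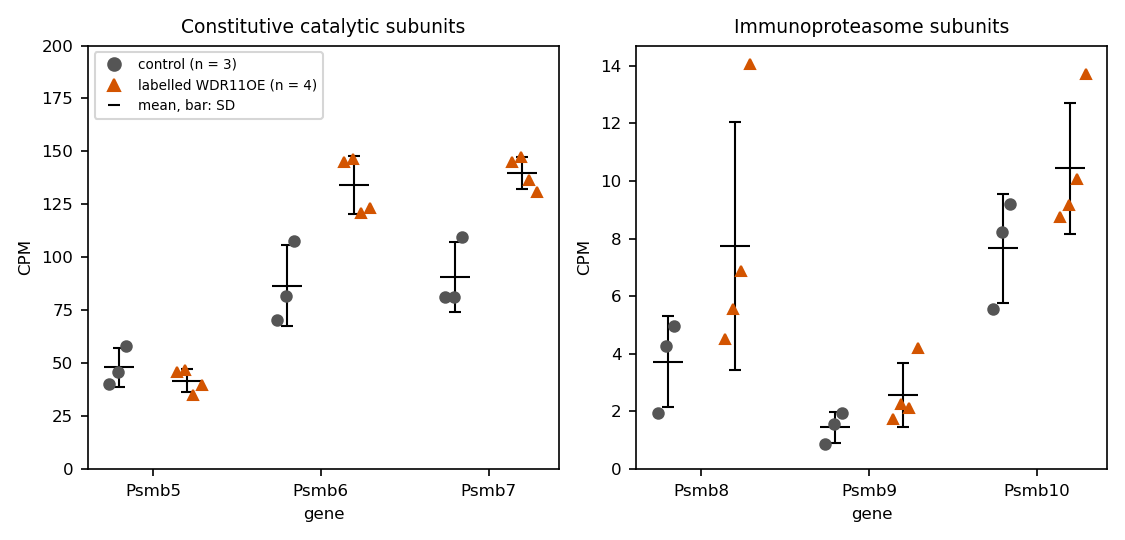
CPM (y axis, from 0) of the constitutive catalytic subunits (left panel) and of the immunoproteasome subunits (right panel, own scale), with grey circles for the 3 controls, orange triangles for the 4 tumors labelled WDR11OE, and black lines for the mean and SD. Psmb6 and Psmb7 separate the groups, Psmb5 does not, and WDR11OE replicate 4 is the highest tumor for Psmb8, Psmb9 and Psmb10.

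The promoters of Psmb5 and Psmb6 are shown because each holds the core of the antioxidant response element just before its start. Psmb6 was called higher and Psmb5 was not, and the part of the element in this difference was not tested. This element is bound by Nfe2l1 (NRF1), the transcription factor known for raising proteasome genes when the proteasome is inhibited, and by Nfe2l2 (NRF2). The last 60 bases before the start, from RefSeq on GRCm38.p6, 5′ to 3′ on the strand of the gene, are printed with the motif TGACNNNGC in capitals; the windows are chr14:54617996-54618055 (minus strand) and chr11:70525297-70525356 (plus strand).
Psmb5: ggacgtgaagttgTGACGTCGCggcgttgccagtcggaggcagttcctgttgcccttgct
Psmb6: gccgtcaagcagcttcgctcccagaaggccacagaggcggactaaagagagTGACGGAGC
Of the 48 genes, 40 had a promoter window of 300 bases in that table. On either strand, TGACNNNGC was found for 6 of these 40 genes (15%, where 13.99% of 27025 genes held it), namely Psmb5, Psmb6, Psmc6, Psmd12, Psmd9 and Psme4. Of the 6, Psmb6, Psmc6, Psmd12 and Psme4 were higher and Psmb5 and Psmd9 were not called. Among the 47 tested proteasome genes 44.7% were higher, and among all genes tested 18.1%. The core of the interferon-stimulated response element was found for 5 of the 40 genes (12.5%, where 3.99% of all genes held it). Psmb3 was higher, and Psmd4, Psmd9, Psme1 and Psmg4 were not called. The part of either motif in the calls was not tested. A match describes the letters and not binding, and no match in a window of this length says nothing about a factor.

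None of the 3 immunoproteasome genes was called in either direction by edgeR, limma-voom or DESeq2, nor had any an unadjusted p under 0.05. Psmb8 (NCBIM37 chr17:34334666-34338399) had the largest estimate of all 47 genes with the widest error (log2 fold change 1.06, SE 0.48, adjusted p = 0.137). It was at 1.95, 4.27 and 4.96 CPM in the controls and at 4.52, 5.56, 6.87 and 14 CPM in the tumors labelled WDR11OE, and the groups overlapped. Its log2 fold change was 0.60 without WDR11OE replicate 4 (adjusted p = 0.242) and 0.74 without control replicate 1 (adjusted p = 0.30). Psmb9 was at 0.862, 1.55 and 1.93 CPM in the controls and at 1.73, 2.25, 2.13 and 4.20 CPM in the others (log2 fold change 0.83, SE 0.41, adjusted p = 0.161). Psmb10 was at 5.56, 8.23 and 9.19 CPM and at 8.76, 9.17, 10.1 and 13.7 CPM (log2 fold change 0.45, SE 0.24, adjusted p = 0.193). Without WDR11OE replicate 4, the log2 fold changes of Psmb9 and Psmb10 were 0.49 and 0.28. For all 3 genes control replicate 1 was lowest and WDR11OE replicate 4 highest, as they were for 18.8% and 25.0% of all genes tested. Psmb9 shares 212 exonic bases with Tap1, which lies on the opposite strand, and its row combines reads of 2 annotated gene identifiers.

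Per kilobase of transcript, the immunoproteasome subunits were far below their constitutive counterparts. Mean levels were 2.29 and 4.76 CPM per kb for Psmb8, 1.07 and 1.91 for Psmb9, and 6.03 and 8.21 for Psmb10, in the controls and the tumors labelled WDR11OE respectively. As a ratio of CPM, which was not corrected for length and is compared here only between tumors, Psmb8 was 4.84%, 9.30% and 8.54% of Psmb5 in the controls and 9.92%, 11.9%, 19.7% and 35.3% in the others. These ranges did not overlap, whereas Psmb9 over Psmb6 (1.23% to 1.90% and 1.19% to 3.40%) and Psmb10 over Psmb7 (6.86% to 10.1% and 6.04% to 10.5%) did. The gap for Psmb8 over Psmb5 was narrow (9.30% against 9.92%), and the levels of Psmb8 alone overlapped. The denominators also differed, with log2 fold changes of -0.20 for Psmb5, 0.63 for Psmb6 and 0.62 for Psmb7. A separate ratio is therefore not a change of Psmb8 alone. Psmb11, the thymus-specific partner of this group, had 1 to 15 counts per tumor, did not pass the filter and was not tested.

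The immunoproteasome partners, a list of 14 interferon and class I antigen presentation genes, had 3 genes higher (H2-K1, H2-D1 and Ifngr1) and 1 lower (Ifngr2), where 18.1% of all genes tested were higher and 15.8% lower. H2-K1, a class I heavy chain, was the highest of the list (log2 fold change 1.18, SE 0.12, adjusted p = 0.00105) and Ifngr2, a chain of the interferon gamma receptor, the lowest (-0.43, SE 0.11, adjusted p = 0.0193). The summed level of the list was 290.1, 338 and 365 CPM in the controls and 397, 445, 437 and 575 CPM in the tumors labelled WDR11OE. WDR11OE replicate 4, the highest tumor for Psmb8 to Psmb10, was also highest for Nlrc5 (11.7 CPM, others 2.15 to 6.5 CPM), an activator of class I genes that was picked with its values in view. The 12 microglia and macrophage markers summed to 117, 376 and 206 CPM in the controls and 158, 138, 221 and 308 CPM in the others, with 0 of 12 called (1 at an unadjusted p under 0.05, 0 by limma-voom and 1 by DESeq2). The 6 T cell markers summed to 0.93 to 1.0 CPM and 0.95 to 1.5 CPM, and Cd3e was at 0 in 6 of the 7 tumors. The part of immune cells in the levels of Psmb8 to Psmb10 was not tested.

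In the cap, 7 of 17 subunits were higher and 2 lower, with a median log2 fold change of 0.24, against 10 of 14 higher, none lower and a median of 0.63 for the constitutive core. Of all genes tested, 18.1% were higher and 15.8% lower. The difference between core and cap was not tested. The ATPases of the base, which form the ring that pulls substrates into the core, had 4 of 6 genes higher. Psmc6 (NCBIM37 chr14:45949504-45969367) had the highest value, rising from 97.5, 95 and 117 CPM to 167, 176, 168 and 167 CPM (log2 fold change 0.72, SE 0.09, adjusted p = 0.00140). Psmc1 (0.56), Psmc5 (0.53) and Psmc2 (0.42) were also higher, and all 3 of these calls were lost without control replicate 1 or 2 or WDR11OE replicate 1 or 2 (adjusted p = 0.0525 to 0.137), which left 1 ATPase called. Psmc3 had the lowest value of the ATPases, -0.05 (SE 0.12, adjusted p = 0.796), with 104 to 144 CPM in the controls and 106 to 120.4 CPM in the others. None of the 3 base subunits without ATPase activity was called with edgeR, limma-voom or DESeq2 or at an unadjusted p under 0.05. Their values ran from 0.00 for Psmd2 (adjusted p = 0.994), a scaffold of the base, to 0.21 for Psmd4 (SE 0.10, adjusted p = 0.148), a ubiquitin receptor.

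Of the 8 lid genes, 3 were higher and 2 lower. Among all genes with an average log2 CPM of at least 5, 25.4% were higher and 25.9% lower, so that calls in both directions are not particular to the lid. Psmd12 (NCBIM37 chr11:107340798-107365676), a scaffold subunit, was at 56.4, 64.7 and 78.0 CPM in the controls and at 126, 116, 101 and 103 CPM in the tumors labelled WDR11OE (log2 fold change 0.75, SE 0.13, adjusted p = 0.00505). Psmd6, another scaffold subunit, was higher by 0.68 (SE 0.09, adjusted p = 0.00171). Psmd14, the enzyme that removes ubiquitin from substrates as they enter, was higher by 0.64 (SE 0.10, adjusted p = 0.00390) and its row combines 2 annotated gene identifiers. Psmd3 (chr11:98543868-98557293), a scaffold subunit, was lower, at 102, 115 and 133 CPM against 89.4, 92.3, 80.6 and 66.1 CPM (log2 fold change -0.51, SE 0.14, adjusted p = 0.0265). Psmd11 (chr11:80242117-80286750), which links the lid to the core and the ATPases, was lower at 78.2, 79.2 and 85.5 CPM against 59.9, 57.7, 65.8 and 54.7 CPM (log2 fold change -0.44, SE 0.08, adjusted p = 0.00511). Neither overlapped between the groups. The call of Psmd3 was lost without control replicate 2 or 3 or WDR11OE replicate 1 or 3 (adjusted p = 0.0630 to 0.0907), and that of Psmd11 was kept without any single tumor. Psmd13 was at 0.33 (adjusted p = 0.0546) and passed without control replicate 3 or WDR11OE replicate 4. Psmd7 and Psmd8 had values of -0.10 and 0.24 and were not called. Psmd3 was 182%, 177% and 171% of Psmd12 in the controls and 70.8%, 79.8%, 80.2% and 63.9% in the others, a pair chosen after its values were seen.

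**Figure D4:**
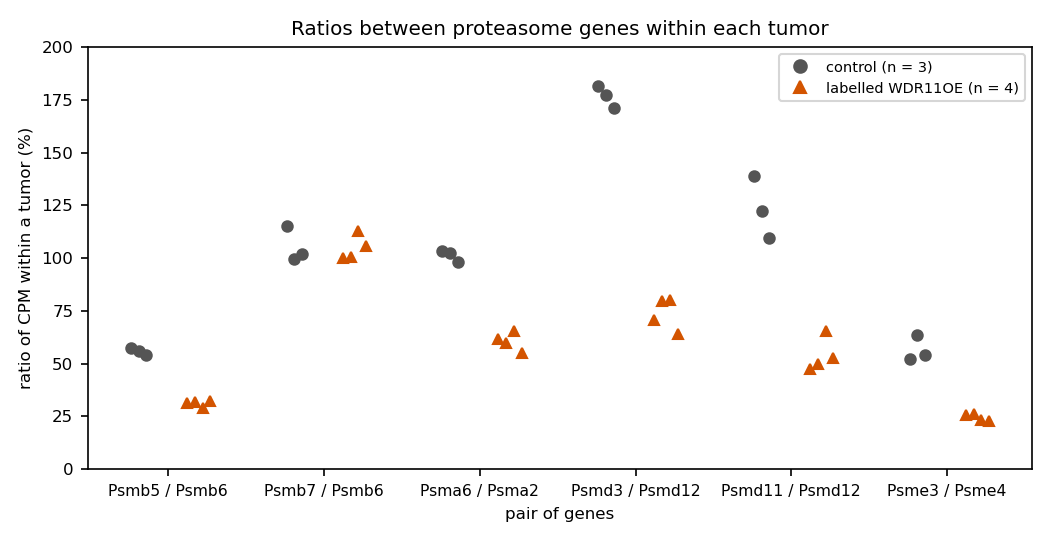
Ratio of CPM between 2 proteasome genes within each tumor, in percent (y axis, from 0), with grey circles for the 3 controls and orange triangles for the 4 tumors labelled WDR11OE. The ranges of the groups overlap for Psmb7 over Psmb6 and are apart for the other 5 pairs, of which Psmb5 over Psmb6 is a natural pair and the others were picked with their values in view.

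Of the 5 regulators 2 were higher and 1 lower, where 18.1% of all genes tested were higher and 15.8% lower. Their median log2 fold change was -0.02. Psme3 (NCBIM37 chr11:101177527-101184851), the nuclear activator PA28 gamma, which allows degradation without ubiquitin, was the lowest of all 47 genes. It was at 96.7, 104 and 108 CPM in the controls and at 60.1, 59.3, 55.8 and 50.9 CPM in the tumors labelled WDR11OE, and fell by 0.86 on the log2 scale (SE 0.08, adjusted p = 0.000980), with no overlap and a call in all 18 alternative fits. Psme4, the large nuclear activator PA200, was higher, at 186, 164 and 199 CPM against 236, 226, 240.3 and 224 CPM (log2 fold change 0.34, SE 0.08, adjusted p = 0.0178). Psme3 was 52.0% to 63.3% of Psme4 in the controls and 22.7% to 26.2% in the others, a pair chosen after its values were seen.

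Psme1 and Psme2 encode the alpha and beta chains of PA28, which form a mixed ring induced by interferon. Psme2 was higher, at 12.8, 17.7 and 20.4 CPM against 25.0, 24.6, 24.2 and 26.6 CPM (log2 fold change 0.57, SE 0.16, adjusted p = 0.0291). Psme1 was at 18.1, 23.0 and 27.6 CPM against 22.6, 22.4, 21.0 and 24.3 CPM, which overlapped (log2 fold change -0.02, SE 0.15, adjusted p = 0.926). Per kilobase of transcript, mean levels were 20.6 and 20.3 CPM per kb for Psme1 and 17.6 and 26.1 CPM per kb for Psme2, in the controls and the tumors labelled WDR11OE. The coding sequence of Psme2 has a near-identical copy, so that its counts are uncertain. Psmf1, an inhibitor of the core, was lower without overlap (20.7 to 25.2 CPM against 18 to 20.7 CPM) but did not pass with edgeR (log2 fold change -0.28, SE 0.10, adjusted p = 0.0675), while DESeq2 called it (adjusted p = 0.00741), as did edgeR without WDR11OE replicate 4 (adjusted p = 0.0432). The call of Psme2 was lost without control replicate 2 or WDR11OE replicate 1, 2 or 3 (adjusted p = 0.0581 to 0.0856), and that of Psme4 without control replicate 2 or WDR11OE replicate 1 or 2 (adjusted p = 0.0513 to 0.114).

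Of the 7 assembly factors 2 were higher, both of them chaperones of the base, where 18.1% of all genes tested were higher. Psmd5 was at 37.2, 33.6 and 40.9 CPM in the controls and at 55.6, 55.6, 48.9 and 49.5 CPM in the tumors labelled WDR11OE (log2 fold change 0.49, SE 0.09, adjusted p = 0.00639). Psmd10 (gankyrin), an oncoprotein known to bind CDK4 and MDM2, was at 7.17, 8.97 and 9.01 CPM and at 13.1, 12.2, 10.8 and 11.5 CPM (log2 fold change 0.51, SE 0.14, adjusted p = 0.0292). Neither overlapped. The call of Psmd5 was lost without WDR11OE replicate 1 or 2 (adjusted p = 0.05004 to 0.0529), and that of Psmd10 without any of the 3 controls or without WDR11OE replicate 1 or 2 (adjusted p = 0.0502 to 0.136). Psmd9, the third chaperone of the base, had a log2 fold change of -0.11 (SE 0.10, adjusted p = 0.457). The 4 chaperones of the core, Psmg1 (0.32), Psmg2 (0.27), Psmg3 (0.30) and Psmg4 (0.29), had similar values, overlapping groups and adjusted p from 0.131 to 0.246.

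Called and uncalled genes differed in base composition. Across all genes tested, log2 fold change and GC content of the exons had a Spearman's rho of -0.34, and across the 47 proteasome genes it was -0.33, as a description over genes that share libraries. The 21 higher genes had a median GC content of 45.5% (36.2% to 52.3%) and the 23 genes without a call 53.1% (42.8% to 56.6%). In a fit without the GC trend, 21 genes were again higher, of which 16 were shared, and 3 lower, of which 2 were shared, and the median was 0.35. Psmc6, with the lowest GC content, was then at 0.14 (adjusted p = 0.449), Psmd14 at 0.17 (adjusted p = 0.397), Psme4 at 0.05 (adjusted p = 0.680), Psmc2 at 0.20 (adjusted p = 0.268), Psmd10 at 0.24 (adjusted p = 0.274) and Psmd3 at -0.29 (adjusted p = 0.118). Psmb4, Psmd4, Psmd8, Psmd13 and Psmg3 were called higher and Psmf1 lower in that fit. Psma1 (0.34), Psma2 (0.53) and Psma3 (0.35) kept their calls at smaller values, Psmd11 was at -0.67, and Psma5 (0.80), Psmb3 (0.72) and Psme3 (-0.86) were close to their values in the reported fit.

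Of the 48 genes, 11 have a near-identical copy elsewhere in the genome (at least 95% identity over at least 100 bases of coding sequence), among them 8 of the 21 higher genes (Psma2, Psma3, Psma4, Psma5, Psmb3, Psmb7, Psmc1 and Psme2) and Psmd11 of the lower genes. The counting could split or drop reads of such genes. The 13 other higher genes have no such copy. Exons of 10 genes overlap a gene on the opposite strand, among them 3 of the higher genes (Psma4, Psma5 and Psmb7) and Psmd3, by 6 to 252 bases.

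Genes that act with the proteasome moved in both directions. Of 26 partners chosen by function, 25 were found and tested, of which 9 were higher and 8 lower, with a median log2 fold change of 0.02, where 18.1% of all genes tested were higher and 15.8% lower. Among all genes with an average log2 CPM of at least 5, 25.4% were higher and 25.9% lower. Calls in both directions are therefore not particular to these partners. The highest partner was Shfm1, the small lid subunit Sem1, which lies outside the naming rule of the 48 genes. It was at 54.0, 64.8 and 81.4 CPM in the controls and at 136, 160.0, 140.0 and 125 CPM in the tumors labelled WDR11OE (log2 fold change 1.07, SE 0.15, adjusted p = 0.00228). The lowest was Ubqln2, which shuttles ubiquitinated proteins to the cap, at 59.7, 69.5 and 67.6 CPM against 16.7, 19.8, 33.3 and 26.4 CPM (log2 fold change -1.45, SE 0.22, adjusted p = 0.00325). The shuttle factors Ubqln1 and Ubqln4 were lower as well, and Rad23b was not called (0.02, adjusted p = 0.943). Pomp, which completes the core, was higher with the core subunits (0.60, SE 0.14, adjusted p = 0.0143), as were the cap deubiquitinases Uchl5 and Usp14. Rps27a, which encodes ubiquitin fused to a ribosomal protein, was higher (0.97), and the polyubiquitin gene Ubb was not called (-0.15, adjusted p = 0.434). Of the ubiquitin activating enzymes, Uba6 was higher (0.76) and Uba1 was not called (-0.32, adjusted p = 0.0520).

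Nfe2l1, the transcription factor of proteasome genes, was lower while 21 proteasome genes were higher. It was at 148, 139 and 145 CPM in the controls and at 98.1, 101, 102 and 92.8 CPM in the tumors labelled WDR11OE, without overlap (log2 fold change -0.55, SE 0.06, adjusted p = 0.00120). Ddi2, the protease that releases Nfe2l1 from the endoplasmic reticulum membrane, was lower (-0.30, SE 0.06, adjusted p = 0.00789), and Ngly1, which removes its sugars, was higher (0.41, SE 0.11, adjusted p = 0.0295). Nfe2l2 was not called (-0.19, SE 0.10, adjusted p = 0.213). These genes, like the others between the highest and the lowest of the list, were picked with their values in view. RNA levels of Nfe2l1 do not measure its activity, which is set after translation.

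**Figure D5:**
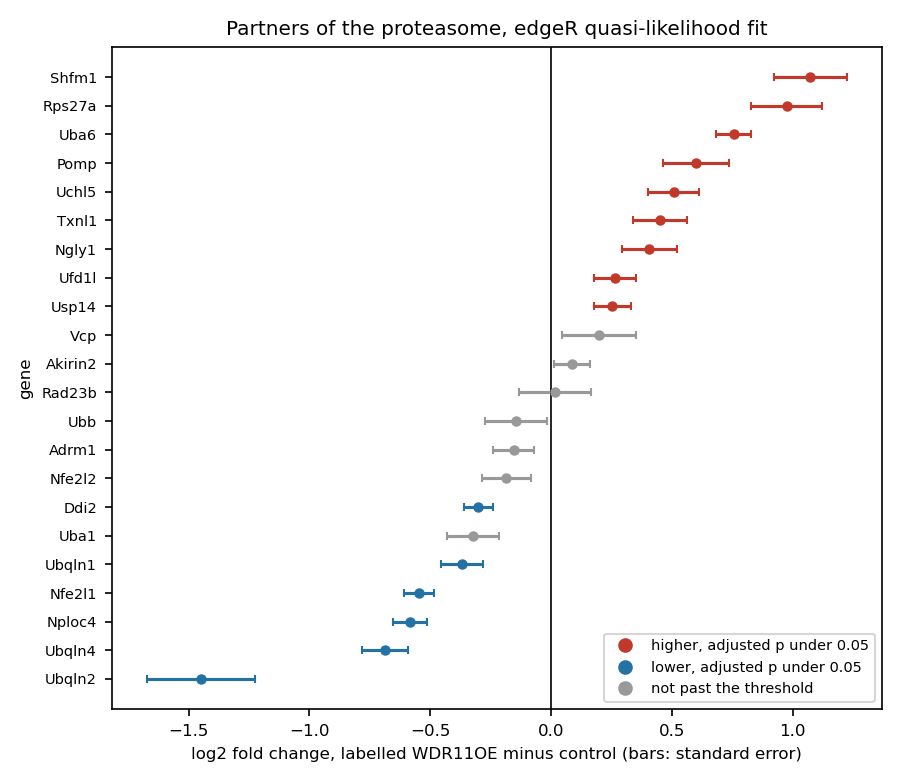
Log2 fold change (labelled WDR11OE minus control, x axis) of 22 of the 25 tested partners of the proteasome, with points for the edgeR estimate and bars for its standard error. Red points are the 9 genes called higher, from Usp14 up to Shfm1, and blue points 6 of the 8 called lower, down to Ubqln2. The 3 partners not drawn are 2 called lower and 1 not called.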

How the data were processed

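RNA-seq reads of 7 G3 MBs were aligned by the authors to NCBIM37.67 (StrongArm pipeline). HT-seq and GENCODE gene models gave the raw counts per gene that they deposited. The submitters' processing notes also name CASAVA 1.7, STAR and BWA. The methods describe stranded total RNA, whereas the labels name the TruSeq RNA kit v2, and the strand setting of the counting is not given in the sources used here. No column was left without a sample. Reads carry no molecular identifiers, so that counting error covers sampling of reads only.

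Everything else was computed here in R 4.3.3. Genes kept by filterByExpr of edgeR 4.0.16 (17389) were scaled by TMM and fitted with the two-sided quasi-likelihood test, the condition as the only term and Benjamini-Hochberg adjustment over all genes. The biological coefficient of variation was 34.6%. The fit was tested on simulated data. Single values were compared by exact permutation over 35 splits, with log2 CPM at a prior count of 2. Coordinates and GC content came from GENCODE M1, which matched 33837 of 34592 genes (97.8%) and all 48 proteasome genes, levels per kilobase used the transcript with the longest coding sequence, and copies were sought with blastn 2.17.0.

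The proteasome genes and the partner and marker lists were chosen with earlier results of these data known. Genes named with values were the catalytic pairs, regulators, assembly factors and tissue-specific subunits, the ends of each other class, called genes that changed by 0.5 or more on the log2 scale, and genes whose call an alternative changed. The alternatives were DESeq2 1.42.0, limma 3.58.1 with voom, other scalings and filters, an adjusted p under 0.01, the study's 2-fold rule, loess removal of trends with GC content or exon length, and leaving out each tumor. Leaving out 2 pairs of tumors was chosen after seeing the data. A few genes of the partner lists are counted but not reported singly here.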

Additional observations from a re-analysis of the deposited data

Results flagged for a closer look

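In each group of 4 tumors labelled WDR11OE, the distance of the highest or lowest tumor from its neighbour was set against the range of the group. Psma3 was at 91.1 CPM in WDR11OE replicate 4, below 94.0 to 94.5 CPM in the other 3 tumors. Psmc6 was at 176 CPM in WDR11OE replicate 2, above 167 to 168 CPM in the other 3. Both ranges are narrow, and both genes were above all controls in every tumor labelled WDR11OE. Chance picks about 1 in 20 such groups, and 2 were found among 50 groups examined.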

How the results depend on the processing

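The counts of higher and lower genes were 21 and 3. They were 12 and 2 at an adjusted p under 0.01, and 0 and 0 under the 2-fold rule. Leaving out single tumors gave 11 to 24 higher genes, 2 to 4 lower genes and medians of 0.28 to 0.51. Without WDR11OE replicates 2 and 4, 12 genes were higher, and without replicates 1 and 2, 7 were. These fits hold fewer tumors. RLE scaling gave 17 higher genes, no filter 15, and library-size or upper-quartile scaling 23. Over single genes and all alternatives, 776 of 888 values kept their side of the threshold, 92 lost a call and 20 gained one. The sign changed for 27 values of 11 uncalled genes, among them Psmb5, Psmc3 and Psme1, and for 0 called values. Only Psma1, Psma2, Psma3, Psma4, Psma5, Psmd6, Psmd11 and Psme3 were called in all 18 alternative fits. The median of all genes was 0.08 in the fit reported and ran from -0.01 without WDR11OE replicate 4 to 0.14 without a filter. No paired analysis was possible because the replicate numbers follow the order of the samples and pair nothing. Genes at a few counts per tumor, such as Psma8 and Psmb11, allow no statement at this depth.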
